A study of Homo sapiens with 2 samples.

Results

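Readthrough genes are annotated genes whose transcripts run from a gene into its downstream neighbour. They were taken as every entry of the deposited table whose gene description holds the word readthrough, which gave 104 of 20263 genes and 295 of 95139 transcripts. Their values were read by RNA-seq in 2 libraries. The cells were H9, a widely used line of human embryonic stem cells, 48 h after treatment with small interfering RNA against HNRNPA1 (siHNRNPA1) or with a control small interfering RNA (sicontrol). No other genetic change or agent is given in the labels for either group. Each group had 1 library, so no difference below has a replicate check, no test was possible and no p-value is given. The title of the series names alternative splicing of TCF3 and the self-renewal of such cells.

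A readthrough transcript arises when RNA polymerase passes the end of a gene and the cleavage and polyadenylation signal there is not used. Splicing then joins an exon of the upstream gene to an exon of the downstream gene. Some such RNAs encode a fusion protein. Others hold an early stop codon and are annotated as substrates of nonsense-mediated decay, the pathway that degrades such RNAs. hnRNP A1, the product of HNRNPA1, binds nascent RNA and bears on the choice of splice sites.

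The siHNRNPA1 library held 28147828 estimated counts and the control library 26680342. HNRNPA1 itself had 179.9 FPKM (fragments per kilobase of transcript, scaled to the library's depth) in the siHNRNPA1 library against 663 in the control. Of 14 pluripotent stem cell markers all 14 had a mean of at least 1 FPKM, and their summed level was 2695 FPKM in the siHNRNPA1 library against 2666 in the control. Within that sum POU5F1 had 1355 and 864 FPKM. At least 2-fold lower were 4 of the 14 (SOX2 with 58.3 and 126 FPKM, PODXL with 102 and 312, DPPA4 with 119 and 346, LIN28B with 5.97 and 20.6), and PRDM14 (46.5 and 14.2) was higher. Among markers of other cell types, 4 of 9 fibroblast genes, 1 of 4 neural genes and 1 of 4 trophoblast or amnion genes reached that level, and no mesoderm or endoderm gene did. The summed fibroblast level was 218 FPKM in the siHNRNPA1 library against 264 in the control, and 3 of those 9 genes were at 0 in both. Of that fibroblast sum THY1 made up 181.5 and 232.5 FPKM. The endoderm sum was 1.69 FPKM in the siHNRNPA1 library against 0.263 in the control, of which FOXA2 made up 1.52 and 0. The neural sum was 85.6 and 21.2 FPKM, of which TUBB3 made up 85.2 and 20.4, while DCX, SOX1 and PAX6 were each under 1 FPKM in both. The trophoblast or amnion sum was 4.30 and 1.76 FPKM, of which KRT7 made up 4.10 and 1.66. The part of such cells in the values below was not tested. Mitochondrial transcripts took 18.1% of TPM (transcript abundance scaled for length and depth) in the siHNRNPA1 library against 28.2% in the control.

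The readthrough genes have little sequence of their own. In the GENCODE 29 annotation (GRCh38), 98 of the 104 could be set against the exons of both component genes, and a median of 97.7% of their exonic bases also lay in a component's exon. For 34 genes every exonic base did. Cut into words of 31 bases, the transcripts of a readthrough gene had a median of 4.54% words found in no transcript of another gene, from 0.599% (ISY1-RAB43) to 67.2%. For 74 of the 104 genes that percentage was under 10. The components lay close together: the median gap between them was 4856 bases, 67 of 98 gaps were under 10000 bases, and in 11 loci the components overlapped. An intron that joins an exon of the left gene to an exon of the right gene and belongs to no other gene was found in 86 of the 104. Of the 295 transcripts, 138 are annotated as nonsense-mediated decay substrates and 156 as protein-coding, and 33 genes had decay transcripts alone. Reads outside these few stretches can be divided between 3 genes in more than 1 way, so a level below is the authors' estimate of that division.

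A sequence that can tell a readthrough RNA from its components is the joint between the genes. Own words also lay elsewhere: JMJD7-PLA2G4B had 244 and SENP3-EIF4A1 452. The 30 bases around a joint are shown for 10 genes whose values the results below turn on. The left gene's last 15 bases are in lower case and the right gene's first 15 in capitals. Some genes have several joining introns, such as RPL36A-HNRNPH2 with 2 and NEDD8-MDP1 with 3. Only that of the joined transcript with the highest summed FPKM is shown. They come from GENCODE 29 transcripts and were taken only at joining introns that belong to no other gene there. None of the 82 joints read in this way occurs in a transcript of another gene, which largely follows from that choice. No joining intron of this kind was found for SENP3-EIF4A1, TMEM256-PLSCR3 or ANKHD1-EIF4EBP3, which are also described below, so no joint is shown for them. The first 5 sequences belong to genes higher in the siHNRNPA1 library, the next 4 to genes lower there, and the last to a gene at nearly the same level in both.

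RPL36A-HNRNPH2 (chrX:101395457-101411936, plus strand): gataagaagagaaagCTACACCAAAATTGC
PPAN-P2RY11 (chr19:10111022-10113633, plus strand): gggaaatggatcgagGTGCCAAGTCCTGCC
JMJD7-PLA2G4B (chr15:41836551-41840158, plus strand): gaggccatggagaagGCAGAGGTGTCCAGG
NEDD8-MDP1 (chr14:24215662-24217186, minus strand): attacaagattttagTGATGGAACTGTACG
RTEL1-TNFRSF6B (chr20:63695854-63696760, plus strand): ctggccagagccccaCAAGGACCATGAGGG
C7orf55-LUC7L2 (chr7:139345621-139376062, plus strand): aatttcatggcaaggGAGATACAACTCGTC
SPECC1L-ADORA2A (chr22:24414744-24433131, plus strand): gctgccccacagcgtGTGCCTCAGGAACCC
ISY1-RAB43 (chr3:129095169-129130088, minus strand): cagaaggctcctgggCTGCAGATCTGGGAC
TMED7-TICAM2 (chr5:115581315-115616318, minus strand): aagagtggcctattgATTGAAAAGAAATGC
NME1-NME2 (chr17:51161272-51166827, plus strand): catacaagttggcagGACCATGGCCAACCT

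The coordinates are the last base of the left gene's exon and the first base of the right gene's exon (in the reverse order on the minus strand), so the distance between them is the joining intron. It ran from 905 bases in RTEL1-TNFRSF6B to 35002 bases in TMED7-TICAM2. JMJD7-PLA2G4B and NME1-NME2 use their joint in 3 annotated transcripts each, and ISY1-RAB43 and C7orf55-LUC7L2 in 1 each.

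Of the 104 readthrough genes, 71 had counts above 0 in the siHNRNPA1 library against 79 in the control. Both libraries had counts for 62, neither for 16, the siHNRNPA1 library alone for 9 and the control alone for 17. Summed over all 104, the readthrough genes held 918.1 CPM (estimated counts scaled to the library's total) in the siHNRNPA1 library (95% exact binomial interval 906.9 to 929.3). The control held 632.8 (623.2 to 642.4), a ratio of 1.45. These intervals come from 1 library each and cover counting error only. The library totals include mitochondrial transcripts, which took 18.1% of TPM in the siHNRNPA1 library against 28.2% in the control. Their part in the ratio was not tested. The 5 highest readthrough genes held 40.2% of the summed readthrough counts in the siHNRNPA1 library against 43.8% in the control. RPS10-NUDT3 and PRR5-ARHGAP8 were among the 5 in both. In the siHNRNPA1 library 12 readthrough genes reached 10 FPKM, against 4 in the control. How many of all genes reached it in each library was not counted.

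Folds are log2((siHNRNPA1 + 1)/(sicontrol + 1)) of FPKM, which understates the change of low genes. A mean of at least 1 FPKM over both libraries was reached by 51 readthrough genes, and 53 stayed under it. Of the 51, 15 (29.4%) were at least 2-fold higher in the siHNRNPA1 library, beside 12.4% of all 11921 genes with such a mean. At least 2-fold lower were 10 (19.6%), beside 21.9% of all genes. The median log2 fold was 0.23 over the 51 and -0.13 over all genes. Without the minimum the medians were close, at -0.05 over 88 readthrough genes and -0.06 over all genes. With 5 FPKM added in place of 1, 10 readthrough genes were 2-fold higher, beside 7.05% of all genes, and 3 were lower, beside 7.94%. Part of these counts rests on the minimum itself, because 6 of the 15 higher genes were under 1 FPKM in the control library and 8 of the 10 lower genes were under 1 FPKM in the siHNRNPA1 library. Of the 35 readthrough genes with at least 1 FPKM in both libraries, 9 were higher, beside 12.6% of all 10608 such genes, and 2 were lower, beside 18.5%. RPL17-C18orf32 (1.08) lay just inside the upper limit and MSH5-SAPCD1 (0.96) just outside it. TMEM110-MUSTN1 (0.479 and 1.96 FPKM) lay at the lower limit and INO80B-WBP1 (-0.71) outside it.

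The base composition and length of transcripts also differed between these genes and the rest. The most abundant transcript of the 51 readthrough genes had a median GC content of 55.1%, against 50.6% over all genes with a mean of at least 1 FPKM. It was 54.8% for the 15 higher and 53% for the 10 lower readthrough genes. Median transcript length was 1884 nucleotides for the 51, 2034 for the higher, 2464 for the lower and 2790 over all genes. Their part in the folds was not tested.

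**Figure D1:**
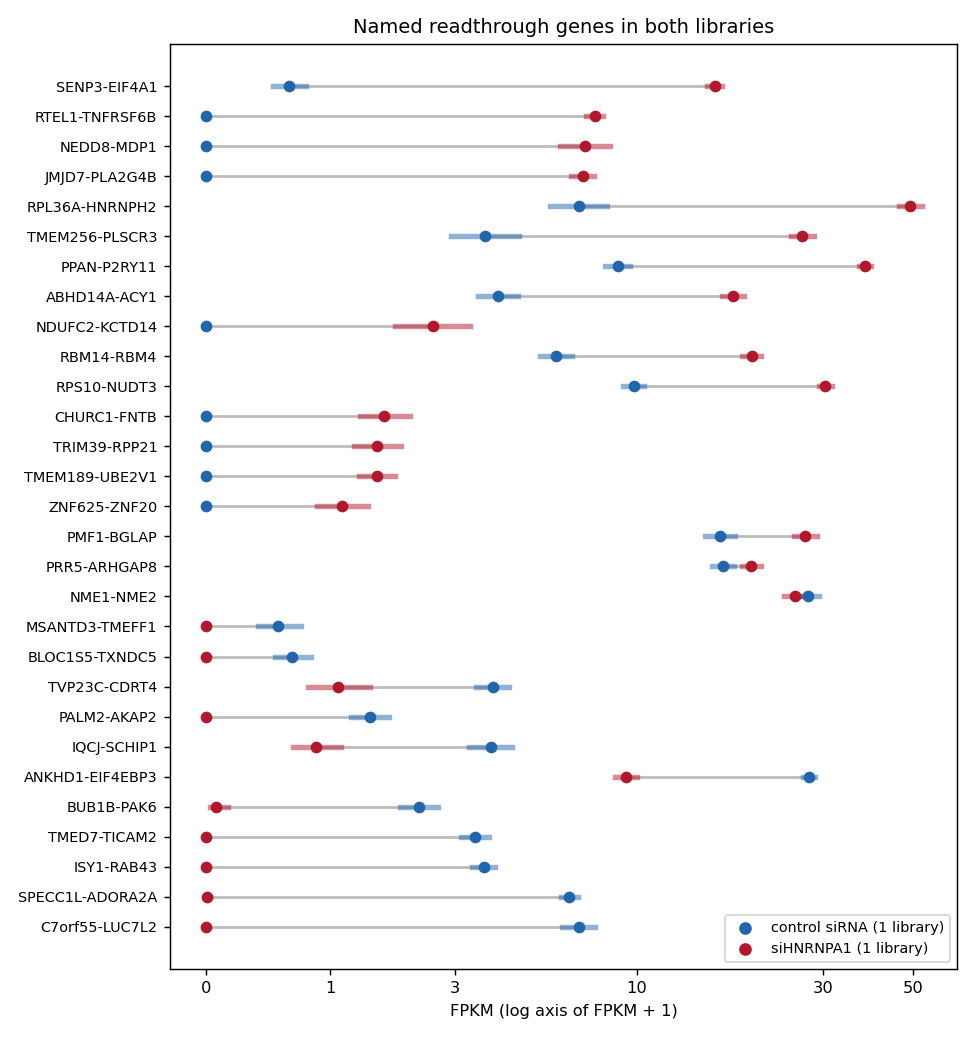
FPKM of 29 readthrough genes in the control library (blue) and the siHNRNPA1 library (red), 1 library each, on a log axis of FPKM + 1. Thick bars are 95% Poisson intervals of the estimated count and cover counting error only. Genes are ordered by fold, with SENP3-EIF4A1 (15.9 and 0.584 FPKM) at the top and C7orf55-LUC7L2 (0 and 6.95 FPKM) at the bottom.

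The 3 readthrough genes with a cytosolic ribosomal protein gene on the left were at least 2-fold higher in the siHNRNPA1 library. The share was 29.4% over the 51 readthrough genes above the minimum and 12.4% over all genes. RPL36A-HNRNPH2 joins a large-subunit ribosomal protein gene to an hnRNP gene. It had 918 estimated counts and 49.3 FPKM (95% counting interval 46.2 to 52.6) in the siHNRNPA1 library and 122 counts and 6.97 FPKM (5.79 to 8.32) in the control, a log2 fold of 2.66. By FPKM it was the highest readthrough gene of the siHNRNPA1 library. RPS10-NUDT3 joins a small-subunit ribosomal protein gene to an inositol phosphate hydrolase gene. Its level was 30.4 FPKM in the siHNRNPA1 library (29.3 to 31.5) against 9.79 in the control (9.20 to 10.4), a log2 fold of 1.54. RPL17-C18orf32, named after its values were seen, had 6.69 and 2.64 FPKM. In each of the 3 loci the ribosomal component was also higher, and it was far more abundant than the readthrough gene. RPS10 had 1327 FPKM in the siHNRNPA1 library against 604 in the control, RPL17 1199 and 770, and RPL36A 840 and 562. The intervals of the libraries did not overlap for RPL36A-HNRNPH2 or RPS10-NUDT3. Here and below such intervals cover counting error only, and the share of all genes with separate intervals was not counted.

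Further readthrough genes with a component of translation or ribosome assembly are described next, with no count over such genes. SENP3-EIF4A1 joins a nucleolar SUMO protease gene to that of a helicase of translation initiation. It had 1859 counts and 15.9 FPKM in the siHNRNPA1 library (15.2 to 16.7) against 64 counts and 0.584 FPKM in the control (0.450 to 0.745), a log2 fold of 3.42. Its single transcript is annotated as a decay substrate, and 13.0% of its words were its own. PPAN-P2RY11 joins a ribosome assembly gene to a purine receptor gene. It had 3141 counts and 38.2 FPKM in the siHNRNPA1 library (36.9 to 39.6) against 669 counts and 8.89 FPKM in the control (8.23 to 9.59), a log2 fold of 1.99. ANKHD1-EIF4EBP3 joins a KH-domain gene to that of a translation repressor. In the opposite direction, it had 830 counts and 9.35 FPKM in the siHNRNPA1 library (8.72 to 10.01) against 3175 counts and 27.6 FPKM in the control (26.7 to 28.6), a log2 fold of -1.47. By FPKM it was the highest readthrough gene of the control library, beside NME1-NME2 with 27.5.

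Readthrough genes with RNA-binding or splicing components lay on both sides. RBM14-RBM4 joins the genes of a pair of RNA-binding proteins. Its level was 19.8 FPKM in the siHNRNPA1 library (18.7 to 21.0) against 6.01 in the control (5.41 to 6.65), a log2 fold of 1.57. Both components were higher as well, RBM14 with 59.6 and 10.6 FPKM and RBM4 with 116 and 45.2 FPKM. C7orf55-LUC7L2 joins a mitochondrial assembly factor gene, now named FMC1, to that of a U1 snRNP-associated splicing factor. It was listed at 0 in the siHNRNPA1 library and had 358 counts and 6.95 FPKM in the control (6.25 to 7.71). ISY1-RAB43 joins a spliceosome gene to that of a small GTPase. It was listed at 0 in the siHNRNPA1 library and had 558 counts and 3.69 FPKM in the control (3.39 to 4.01). BCL2L2-PABPN1, which joins an apoptosis inhibitor gene to that of the nuclear poly(A) binding protein, was chosen here after its values were seen and had 3.85 and 4.34 FPKM, a log2 fold of -0.14.

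Several higher readthrough genes have enzyme or membrane protein components. TMEM256-PLSCR3, whose right component is a phospholipid scramblase gene, had 911 counts and 26.6 FPKM in the siHNRNPA1 library (24.9 to 28.4) against 72 counts and 3.73 FPKM in the control (2.92 to 4.70), a log2 fold of 2.54. ABHD14A-ACY1 ends in an aminoacylase gene. It had 965 counts and 17.8 FPKM in the siHNRNPA1 library (16.7 to 18.9) against 203 counts and 4.08 FPKM in the control (3.54 to 4.68), a log2 fold of 1.89. The other higher genes were chosen for mention after their values were seen. HSPE1-MOB4, with a mitochondrial chaperonin gene on the left, had 6.44 and 1.08 FPKM. PTGES3L-AARSD1, with a gene of alanyl-tRNA editing on the right, had 14.4 and 4.90 FPKM. CORO7-PAM16, with a mitochondrial import gene on the right, had 3.72 and 0.777 FPKM.

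Among lower readthrough genes with signalling or trafficking components, SPECC1L-ADORA2A had the largest difference with counts in both libraries. It joins a cytoskeletal gene to an adenosine receptor gene and is annotated as a decay substrate. The siHNRNPA1 library held 2 counts of it and 0.0064 FPKM, the control 1262 counts and 6.55 FPKM (6.20 to 6.92), a log2 fold of -2.91. TMED7-TICAM2, which ends in a Toll-like receptor adaptor gene, was listed at 0 in the siHNRNPA1 library and had 375 counts and 3.47 FPKM in the control (3.13 to 3.84). BUB1B-PAK6 joins a spindle checkpoint kinase gene to another kinase gene. It had 6 counts in the siHNRNPA1 library against 175 in the control, or 0.0598 and 2.27 FPKM. TVP23C-CDRT4 had 1.08 FPKM in the siHNRNPA1 library against 3.93 in the control, and the intervals, 0.763 to 1.49 and 3.51 to 4.40, did not overlap. IQCJ-SCHIP1 had 0.845 and 3.87 FPKM.

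Not every abundant readthrough gene reached 2-fold. NME1-NME2, which joins a pair of nucleoside diphosphate kinase genes, had 986 counts in the siHNRNPA1 library against 985 in the control. Its levels were 25.6 FPKM (24.0 to 27.2) and 27.5 FPKM (25.8 to 29.3), with overlapping intervals and a log2 fold of -0.10. PRR5-ARHGAP8, which joins a gene of the mTORC2 complex to the gene of a GTPase activator, had 19.8 and 16.7 FPKM (0.23). PMF1-BGLAP, which joins a kinetochore gene to the osteocalcin gene, had 27.1 and 16.4 FPKM (0.69). The intervals of these last 2 did not overlap between the libraries, although neither difference reached 2-fold. With 1 library per group, separate counting intervals do not tell a difference between treatments from one between cultures.

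A listed 0 beside a substantial count was frequent among readthrough genes. In the control library 8 of 104 (7.69%) were at 0 with at least 30 counts in the siHNRNPA1 library, beside 0.158% of all 20263 genes. In the siHNRNPA1 library 6 (5.77%) were at 0 with at least 30 counts in the control, beside 0.252% of all genes. Listed at 0 in the control were RTEL1-TNFRSF6B, which joins a telomere helicase gene to a decoy receptor gene (1239 counts and 7.69 FPKM in the siHNRNPA1 library), and JMJD7-PLA2G4B, which joins a hydroxylase gene to a phospholipase gene (727 counts, 7.14 FPKM). NEDD8-MDP1, which starts with the gene of a ubiquitin-like protein, had 160 counts and 7.26 FPKM there. With fewer counts in the siHNRNPA1 library came TMEM189-UBE2V1 (146), TRIM39-RPP21 (90), CHURC1-FNTB (83), ZNF625-ZNF20 (58) and NDUFC2-KCTD14 (48). Their FPKM ranged from 1.13 in ZNF625-ZNF20 to 2.53 in NDUFC2-KCTD14. At 0 in the siHNRNPA1 library were ISY1-RAB43, TMED7-TICAM2 and C7orf55-LUC7L2, and with fewer control counts PALM2-AKAP2 (129), BLOC1S5-TXNDC5 (58) and MSANTD3-TMEFF1 (32). No fold is given for these as a bound, because a 0 can come from how shared reads were divided. BLOC1S5-TXNDC5 shares its component BLOC1S5 with EEF1E1-BLOC1S5, which was at 0 in both libraries.

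The loci whose readthrough gene was at 0 were themselves expressed. RTEL1 had 11.7 FPKM in the siHNRNPA1 library against 11.0 in the control, and TNFRSF6B 2.33 and 0.672. NEDD8 had 243 and 148 FPKM and MDP1 8.37 and 2.62. JMJD7 was close in the libraries with 6.03 and 6.55 FPKM, while PLA2G4B was lower in the siHNRNPA1 library with 0.658 and 3.997. In the other direction, LUC7L2 had 20.1 and 41.9 FPKM and FMC1 16.3 and 4.18, so the left and right components of that locus lay on opposite sides. ISY1 had 9.31 and 4.13 FPKM and RAB43 11.8 and 9.94. TMED7 had 3.29 and 7.02 FPKM, and TICAM2, listed at 0 in the control, had 0.350 in the siHNRNPA1 library. The genes at 0 in the siHNRNPA1 library had little sequence of their own, with a median of 1.44% own words (0.599 to 2.84), and those at 0 in the control a median of 4.5% (0.99 to 12.3).

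**Figure D2:**
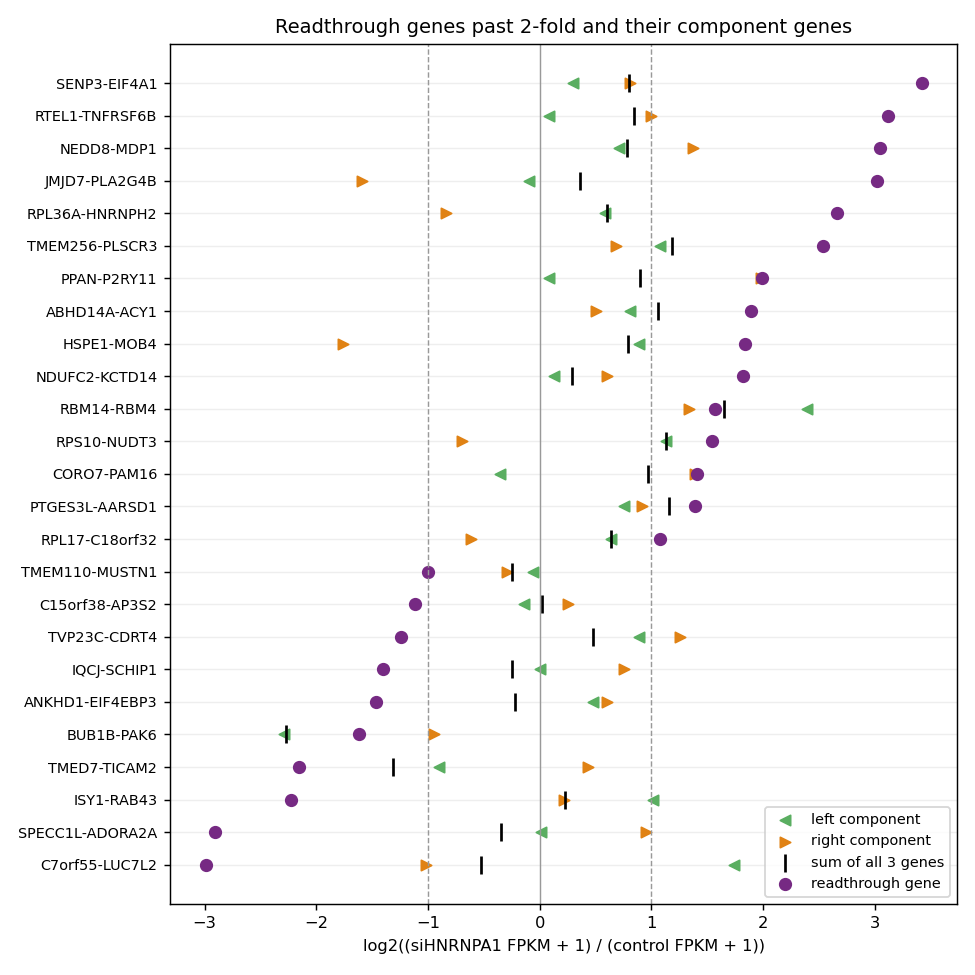
Log2 folds of FPKM + 1, siHNRNPA1 over control, for the 25 readthrough genes past 2-fold (circles), their left and right component genes (triangles) and the sum of all 3 genes (bars). Dashed lines mark 2-fold. The sum is within 2-fold in 10 of the 15 upper and 8 of the 10 lower loci, and in BUB1B-PAK6 both the sum (-2.27) and BUB1B (-2.29) lie below the readthrough gene (-1.62).

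The folds of readthrough genes were set beside those of their components. Of 49 readthrough genes with a mean of at least 1 FPKM and both components in the table, 18 had a fold above both components, 19 below both and 12 between them. These loci share both libraries and divide reads between the genes compared. The 15 higher and 10 lower genes were picked by their own fold, so a place beyond both components was partly built in. Of the 15 higher readthrough genes 14 stood above both components, the exception being RBM14-RBM4. Of the 10 lower ones 9 stood below both, the exception being BUB1B-PAK6, whose left component BUB1B had 15.4 and 79.2 FPKM. A component at least 2-fold higher was found in 3 of the 15 loci on the left and in 5 on the right. The right component was at least 2-fold lower in 2 of these loci with a higher readthrough gene. These were PLA2G4B, given above, and MOB4. MOB4 had 4.96 FPKM in the siHNRNPA1 library against 19.3 in the control.

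Summed over the readthrough gene and both components, most of these loci were within 2-fold. In the 15 loci with a higher readthrough gene the summed log2 fold ran from 0.29 to 1.65 with a median of 0.84, and 10 were within 2-fold. In the 10 loci with a lower one it ran from -2.27 to 0.48 with a median of -0.25, and 8 were within 2-fold. The other 2 were those of BUB1B-PAK6 (-2.27) and TMED7-TICAM2 (-1.31). The median over all 49 loci was 0.68.

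**Figure D3:**
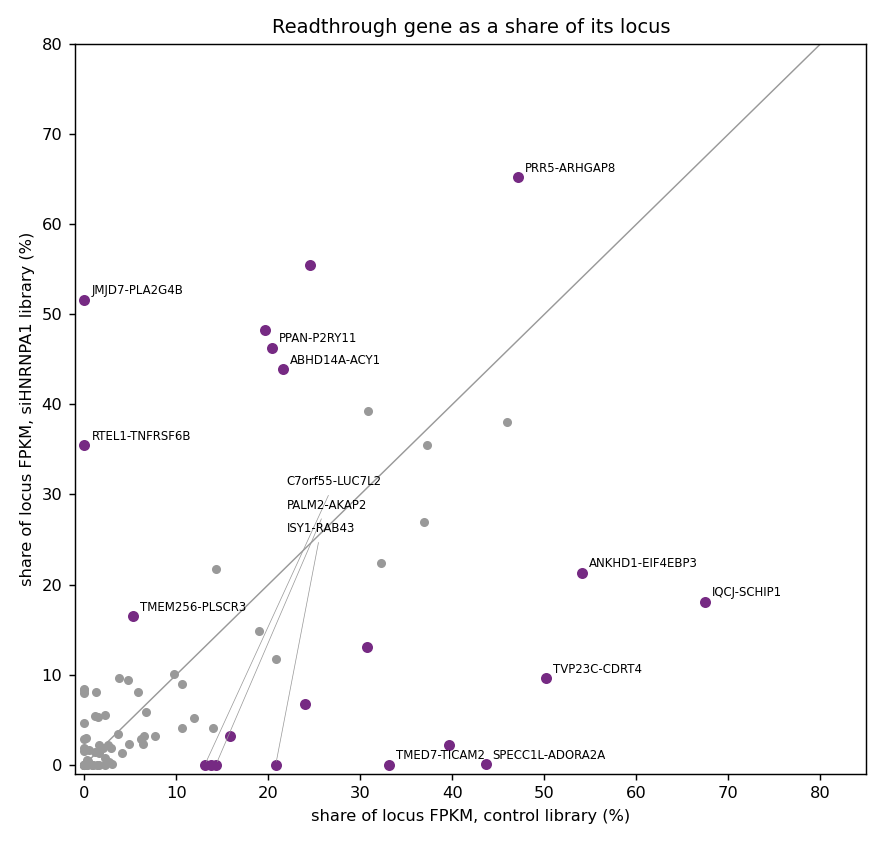
Each point is 1 of 88 loci, placed by the percentage of the locus' FPKM (readthrough gene plus both components) that was assigned to the readthrough gene in the control library (x) and in the siHNRNPA1 library (y). Purple points differ by at least 10 percentage points, 8 above the line of equal shares and 13 below it, and those among the 29 genes of the plot of levels carry their name.

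In most loci the readthrough gene was a minor part. Of 88 loci with at least 1 summed FPKM in both libraries, the median share was 2.84% in the siHNRNPA1 library against 2.94% in the control. A share of at least 20% was held by 14 readthrough genes in the siHNRNPA1 library against 19 in the control. The share was at least 10 percentage points higher in the siHNRNPA1 library for 8 and lower for 13. PPAN-P2RY11 took 46.3% of its locus in the siHNRNPA1 library against 20.4% in the control, ABHD14A-ACY1 43.9% and 21.6%, and JMJD7-PLA2G4B 51.6% and 0. On the other side ANKHD1-EIF4EBP3 took 21.3% and 54.1%, TVP23C-CDRT4 9.59% and 50.2%, and SPECC1L-ADORA2A 0.0554% and 43.6%. Shares and folds did not always go together. PRR5-ARHGAP8, within 2-fold itself, took 65.2% of its locus in the siHNRNPA1 library against 47.1% in the control, in a locus where ARHGAP8 (5.68 and 14.7 FPKM) was lower. RPL36A-HNRNPH2, in contrast, took only 5.45% and 1.17% of its locus.

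How far the level of a readthrough gene rested on 1 transcript varied, and 37 of the 104 have only 1 in the table. ABHD14A-ACY1 has 27 transcripts in the table. A single decay transcript of it (ENST00000636660) had 354 counts and 9.51 FPKM in the siHNRNPA1 library, 53.6% of the gene, and was listed at 0 in the control. In TMEM256-PLSCR3 the transcript ENST00000570600 had 576 counts and 11.4 FPKM in the siHNRNPA1 library against 0 in the control, while ENST00000570569 had 209 and 57 counts. Both transcripts of PPAN-P2RY11 were higher, with 1999 and 555 counts for ENST00000393796 and 1142 and 114 for ENST00000428358. In RPL36A-HNRNPH2 the transcript ENST00000409170 had 831 counts in the siHNRNPA1 library against 84 in the control, and ENST00000409338 had 87 and 38. TVP23C-CDRT4 had different leading transcripts in the libraries. Its ENST00000522212 had 288 counts in the control and 0 in the siHNRNPA1 library, where ENST00000557349 carried all 37. In NME1-NME2 the leading transcript ENST00000555572 had 890 and 879 counts.

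Transcripts listed under a readthrough gene need not run through the whole upstream gene. Both transcripts of ANKHD1-EIF4EBP3 hold exonic bases of both components, but ENST00000437495 starts at chr5:140528914, far downstream of the gene's start at 140401908, and carried 8.68 FPKM in the siHNRNPA1 library against 20.9 in the control. The transcript from the gene's start, ENST00000532219, had 183 counts and 0.667 FPKM in the siHNRNPA1 library against 1720 counts and 6.73 FPKM in the control. IQCJ-SCHIP1 goes against its label as a readthrough gene. Only 2 of its 13 transcripts hold exonic bases of both components, and these carried 6.21% of the gene's FPKM in the control (19 counts) and 0 in the siHNRNPA1 library. Its leading transcript ENST00000460298, with 25 and 137 counts, starts at 159764002 on chromosome 3, while the gene starts at 159069252. In RTEL1-TNFRSF6B 1 of 2 transcripts spans both components, and it carried 65.3% of the gene's FPKM in the siHNRNPA1 library. Counting transcripts with exonic bases of both components alone, all 15 higher genes stayed at least 2-fold higher. Of the 10 lower genes 9 stayed lower, IQCJ-SCHIP1 (-0.31) being the exception. In all the others except RTEL1-TNFRSF6B such transcripts carried all of the gene's FPKM, so those folds could not change.

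**Figure D4:**
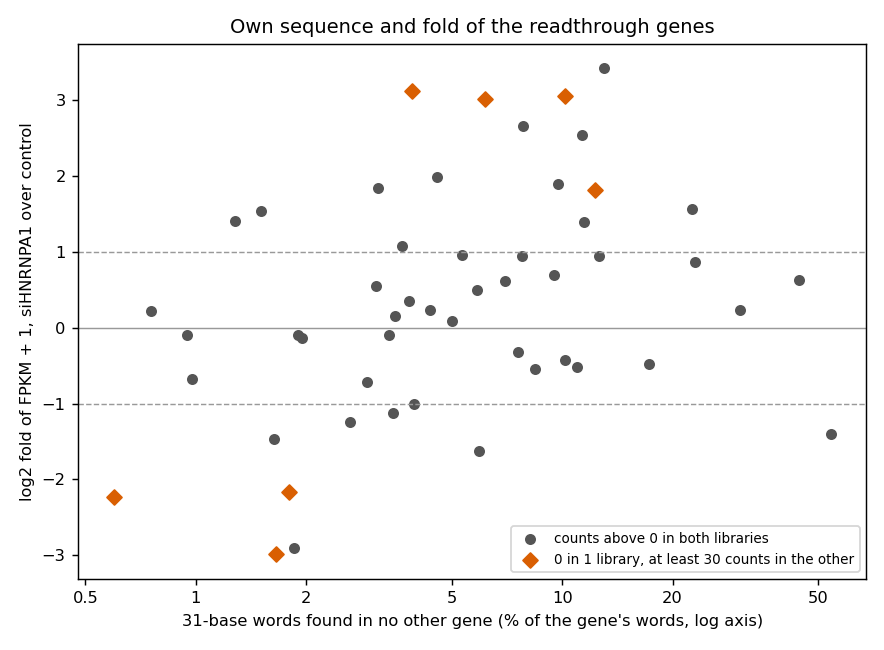
The 51 readthrough genes with a mean of at least 1 FPKM, by the percentage of their 31-base words found in no transcript of another gene (x, log axis) and their log2 fold (y). Diamonds are genes at 0 in 1 library with at least 30 counts in the other. The 3 diamonds below the lower dashed line of 2-fold have from 0.599 to 1.8% own words.

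The amount of own sequence was set beside the direction of the fold. The median percentage of own words was 7.81 for the 15 higher genes (1.28 to 22.6), 2.24 for the 10 lower genes (0.599 to 54) and 5.59 for the 26 within 2-fold (0.755 to 44.3). The ranges overlap widely, and whether the amount of own sequence bears on the estimates was not tested. Decay transcripts alone were annotated for 3 of the 15 higher, 1 of the 10 lower and 8 of the 26 other genes, and protein-coding transcripts alone for 5, 7 and 11.

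The 53 readthrough genes under the minimum held 37 with counts in either library. Of these, 28 were higher in the control and 9 in the siHNRNPA1 library, and their log2 folds ran from -1.32 (PALM2-AKAP2) to 1.43 (CHURC1-FNTB).

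The machinery that ends transcripts and degrades them was read from lists of known factors. Of 28 cleavage, polyadenylation and termination factors, all with a mean of at least 1 FPKM, 10 were at least 2-fold lower and 2 higher in the siHNRNPA1 library, with a median log2 fold of -0.71. Over all genes 21.9% were lower and 12.4% higher. All 14 nonsense-mediated decay and exon junction factors were measured, with 2 lower, 2 higher and a median of 0.17. The medians stand beside -0.13 over all genes, and whether these levels bear on the readthrough genes was not tested.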

How the data were processed

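Messenger RNA libraries of H9 cells were compared, 1 per group. The estimated counts, TPM and FPKM per transcript were deposited by the authors, per the file headers, in a table whose 6 other per-sample columns could be tied to no labelled library and were not used. For the aligner and the quantification program, names and settings are not given in the sources used. Mouse builds (GRCm 38, mm 10) stand in the submitters' processing notes, but the table holds human identifiers, and 292 of the 295 readthrough transcripts have the same position in GENCODE 29 (GRCh38). The deposited counts are whole numbers that behave as rounded estimates.

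Values were summed per gene with Python 3.11.15, pandas 2.3.3 and numpy 2.4.6, and intervals came from scipy 1.17.1. Poisson intervals on counts (95%) were scaled to FPKM and cover counting error only. Components were matched by symbol in the table, 3 of them by an older symbol, which gave 99 readthrough genes with both. Joints and 31-base words were read from GENCODE 29 transcripts. The code for folds and calls was tested on simulated counts of genes well above the minimum, without reads shared between genes. The other code was not tested in this way. Named genes were the 10 highest by mean FPKM, the 8 highest and 8 lowest folds, every gene at 0 in 1 library with at least 30 counts in the other, and 5 genes already known from these data. Genes outside that rule are said to be so or stand beside a threshold, a count or a component. The readthrough genes, the rule and the lists were chosen with earlier results of these data known. Alternatives changed the pseudocount, the minimum, the unit, the scaling and the choice of loci. Some results are not reported here.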

Additional observations from a re-analysis of the deposited data

How the results depend on the processing

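The number of readthrough genes at least 2-fold lower was 10 with 1 FPKM added and 3 with 5 FPKM added, where the share over all genes went from 21.9% to 7.94%. With a mean of at least 5 FPKM, 13 readthrough genes were measured, of which 8 were higher and 1 lower, with a median log2 fold of 1.54. Over all genes of that level 15.9% were higher and 18.8% lower, with a median of 0.07. This minimum is on the mean of both libraries, so a gene can pass it through 1 library alone. Among the 8 higher genes, SENP3-EIF4A1, TMEM256-PLSCR3, ABHD14A-ACY1 and PTGES3L-AARSD1 were under 5 FPKM in the control. The 1 lower gene, ANKHD1-EIF4EBP3, was above 5 FPKM in both libraries. Without a minimum the median turned to -0.05 over 88 genes, beside -0.06 over all genes. The 37 readthrough genes added in this way held 28 higher in the control and 9 higher in the siHNRNPA1 library. Why more of them were higher in the control was not tested. Genes at 0 in 1 library were 14 with at least 30 counts in the other and 8 with at least 100. For 29 named genes, 145 fold values under the other pseudocounts, TPM, CPM and median ratio scaling held 0 changes of sign, although many moved in size. The 14 genes at 0 in 1 library are among the 29, and none of these settings could turn their sign. Others were named for their large folds, so the sign was mostly settled by the choice of genes. Restricting the set to genes with counts above 0 in both libraries, chosen after seeing the data, left 11 higher and 7 lower of 44. The shares over all genes under the same restriction were not counted, so these numbers have no reference. No paired analysis was possible because each group had 1 library. Depth limits the genes with few counts, and no interval covers the spread between cultures or errors in dividing shared reads.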
